A study of Mus musculus with 10 samples.

Results

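The genes described here are the receptors and ligands of the tumor necrosis factor (TNF) superfamily and the toll-like receptors, read in long-term hematopoietic stem cells (LT-HSCs) of the mouse fetal liver. They were chosen by symbol: every row of the gene table whose name begins with Tnfrsf, Tnfsf or Tlr followed by a digit, plus Cd40, Fas, Ltbr, Tnf and Myd88. The rule took 44 of the 17404 genes in the table, namely 10 ligands, 5 receptors with a death domain, 18 other TNF receptors, 10 toll-like receptors and the adaptor Myd88. Of the 44 genes, 43 had enough counts to be tested. Only Tnfrsf17 did not, with 10 counts in all, every one of them in KO 15411.

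The study asked how fetal liver LT-HSCs change when fetal liver macrophages are depleted. RNA of LT-HSCs sorted at embryonic day E14.5 was sequenced in bulk, in 6 libraries labelled Tnfrsf11aCre; Spi1f/f (KO) and 4 labelled Tnfrsf11a+/+; Spi1f/f (WT). Both groups carried floxed Spi1, the gene for the myeloid transcription factor PU.1, on the C57BL/6 background, and the KO embryos alone carried Cre. Cre was driven by the Tnfrsf11a locus, itself one of the genes described here, and was directed at macrophages, so the sorted stem cells were not the population the deletion was aimed at.

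Ligands of the TNF superfamily are made mostly as trimers on the cell surface, and their receptors recruit TRAF adaptors or, through a death domain, adaptors that can lead to cell death. Toll-like receptors bind microbial molecules, and most of them signal through Myd88. Both families converge on NF-kappaB, and blood stem cells are known to read inflammatory signals directly through them.

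Between 5315435 and 30941726 counts fell on genes in a KO library and between 7633446 and 18256010 in a WT library, so that 1 count was worth 0.0309 to 0.158 CPM. CPM, the count scaled to library size, is normalized here by the trimmed mean of M values (TMM). Among the 12 stem cell markers, which include Kit, Procr and Mecom, 11 were higher in KO, 3 of them past the threshold used throughout, a Benjamini-Hochberg adjusted p below 0.1 in edgeR's quasi-likelihood test. Their summed level was 891 to 2000 CPM in KO and 567 to 912 CPM in WT. Single genes weighed on this sum. In KO 15409 Tek and Fgd5 gave 399 and 174 of 891 CPM, and in WT 15416 Ly6a gave 207 of 567 CPM. Tek and Fgd5 were at their highest in KO 15409, the library with the highest endothelial sum given below (7600 CPM). Whether endothelial RNA contributed to Tek and Fgd5 was not tested. RNA of genes listed as markers of other cell types was present in every library. Summed over the 7 endothelial markers it was 1040 to 7600 CPM in KO and 218 to 4870 CPM in WT, over the 6 megakaryocyte markers 244 to 3430 and 242 to 1190 CPM, over the 11 granulocyte markers 12.6 to 1340 and 6.14 to 2190 CPM, and over the 15 macrophage markers tested 240 to 933 and 105 to 734 CPM. Of those 15, 11 were lower in KO, 1 of them past the threshold, Marco was at 0 in all 6 KO libraries, and the median sum was 453 CPM in KO and 620 CPM in WT. Mrc1 made up much of that sum, as in KO 15409 with 714 of 933 CPM. KO 15409 also had the highest endothelial sum, and which cell type Mrc1 came from was not tested. Monocyte and dendritic markers summed to 172 to 527 CPM in KO and 48.0 to 399 in WT, mast cell and basophil markers to 19.1 to 90.4 and 14.4 to 57.5, lymphoid markers to 0.316 to 6.31 and 1.42 to 14.3, erythroid markers to 2090 to 94200 and 2190 to 238000, and hepatoblast markers to 86.5 to 7820 and 232 to 5240 CPM. Cd48, listed here as a marker that LT-HSCs lack, was at 0.271 to 8.01 CPM in KO and 0.566 to 13.3 in WT. The sample labelled WT 15416 stood apart with the lowest endothelial, macrophage and granulocyte sums, and it was the lowest library for 8 of the 19 genes of the set that averaged at least 5 CPM. Fewer cells of a type and less RNA per cell cannot be told apart in such bulk samples.

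Spi1 RNA was present in both groups. It was at 9.10 to 101 CPM in KO (median 65.6), and at 6.22, 33.8, 50.1 and 7.64 CPM in WT 15416, 15417, 15418 and 15420. The groups overlapped. The KO mean was 60.6 ± 31.1 CPM (SD, n = 6) against 24.4 ± 21.3 CPM (SD, n = 4) in WT, and a two-sided exact permutation test over the 210 ways to draw 6 of 10 libraries gave p = 0.0857.

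Promoter sequence is shown for 4 genes whose values are given by library below and whose windows match letters read by PU.1 or NF-kappaB. Tnfrsf8, also given by library and with a kappaB match, is not shown. The windows come from RefSeq on GRCm38.p6 and run from 250 bases before to 50 bases after a transcription start, 5′ to 3′ on the gene's strand. Those of Tnfrsf1b (chr4:145246821-145247120, minus strand), Tnfrsf25 (chr4:152116093-152116392, plus strand, one of its 2 windows) and Tnf (chr17:35201958-35202257, minus strand) hold the PU.1 core GAGGAAG on either strand, and that of Tlr2 (chr3:83841559-83841858, minus strand) holds the kappaB consensus. Matches are in capitals.
Tnfrsf1b: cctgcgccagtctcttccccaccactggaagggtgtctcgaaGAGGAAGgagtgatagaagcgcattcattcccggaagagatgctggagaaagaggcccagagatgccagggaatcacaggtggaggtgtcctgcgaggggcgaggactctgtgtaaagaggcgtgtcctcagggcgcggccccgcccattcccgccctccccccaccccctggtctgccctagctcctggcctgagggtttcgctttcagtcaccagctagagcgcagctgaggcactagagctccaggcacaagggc
Tnfrsf25: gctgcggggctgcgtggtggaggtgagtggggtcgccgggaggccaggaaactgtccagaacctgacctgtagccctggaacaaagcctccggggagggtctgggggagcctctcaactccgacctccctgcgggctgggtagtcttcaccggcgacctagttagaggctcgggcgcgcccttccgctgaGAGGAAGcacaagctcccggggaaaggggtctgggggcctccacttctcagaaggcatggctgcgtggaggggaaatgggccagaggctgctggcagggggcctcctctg
Tnf: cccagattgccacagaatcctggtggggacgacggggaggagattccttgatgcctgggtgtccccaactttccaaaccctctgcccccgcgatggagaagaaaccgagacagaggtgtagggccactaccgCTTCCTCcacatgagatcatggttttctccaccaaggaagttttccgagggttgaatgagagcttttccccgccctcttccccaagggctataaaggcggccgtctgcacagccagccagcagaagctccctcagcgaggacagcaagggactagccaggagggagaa
Tlr2: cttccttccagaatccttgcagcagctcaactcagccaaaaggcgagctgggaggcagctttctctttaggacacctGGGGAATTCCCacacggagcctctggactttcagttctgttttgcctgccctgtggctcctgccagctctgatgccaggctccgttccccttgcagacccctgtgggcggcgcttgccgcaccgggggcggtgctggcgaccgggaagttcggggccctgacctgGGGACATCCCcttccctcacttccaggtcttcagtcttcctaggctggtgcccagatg

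Of the 44 genes, 34 matched a RefSeq window, 40 windows in all. The PU.1 core was in 5 of the 40 windows (12.5%), those of Tlr1, Tlr13, Tnf, Tnfrsf1b and Tnfrsf25, and in 13.6% of the 32851 windows of all genes. The kappaB consensus was in 4 of the 40, those of Tlr2, Tlr3, Tnfrsf8 and Tnfrsf9, and in 4.51% of all windows. A match is a description of the letters and does not show that a factor binds there.

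Levels of different genes were compared per length, in TPM, a gene's share of the transcripts in a library after scaling for length. They are levels of whole libraries, which also held RNA of genes listed as markers of other cell types. Receptors with a death domain had the highest median level of the classes with several genes, 6.99 TPM, against 3.48 TPM for the other TNF receptors, 1.01 TPM for toll-like receptors and 0.867 TPM for ligands. The median over all 44 was 2.07 TPM, below the 5.61 TPM over 16941 genes of the table. At least 1 TPM on average was reached by 29 of the 44, and 26 had at least 1 count in every library.

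Tnfrsf1a, the main receptor for soluble TNF, led the order at 46.3 ± 23.1 TPM (SD over all 10 libraries) and was the highest of the 44 in 9 of 10 libraries. In WT 15416 it was at 5.08 TPM, below Myd88 at 24.0, Tnfrsf10b at 8.90 and Tnfrsf21 at 5.46 TPM. Ltbr, the lymphotoxin beta receptor, followed at 28.1 ± 15.6 TPM and Myd88 at 27.0 ± 8.79 TPM. This pair did not separate, since Ltbr was the higher of them in 6 of 10 libraries. Myd88 was above Tnfrsf13b, a receptor for the B cell factors BAFF and APRIL, at 12.7 ± 8.93 TPM, in 10 of 10. Below it the order was loose: Tnfrsf18 at 11.8, Tnfrsf26 at 9.64 ± 5.09, Tnfrsf21 at 9.48 ± 4.29 and Tnfrsf1b at 8.03 ± 7.54 TPM differed from their neighbours by less than these SDs. The order pools both groups. Among the WT libraries alone Tnfrsf1a (31.7 TPM) was followed by Myd88 (20.6) and then Ltbr, Tnfrsf18 fell from place 5 to 8 (5.56 TPM against 15.9 in KO), and Tnfrsf1b from place 8 to 19 (2.26 TPM against 11.9 in KO). Among ligands the highest were Tnfsf14 at 7.95 ± 8.5 TPM, Tnfsf9 at 6.77 ± 4.50 TPM and Tnf at 2.06 ± 2.64 TPM, and among toll-like receptors Tlr12 at 6.99 ± 5.56, Tlr2 at 2.98 ± 1.82 and Tlr4 at 2.08 ± 1.65 TPM. Tnfrsf8, Tnfsf4 and Tnfrsf17 ended the order at 0.0557, 0.0659 and 0.0714 TPM.

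**Figure D1:**
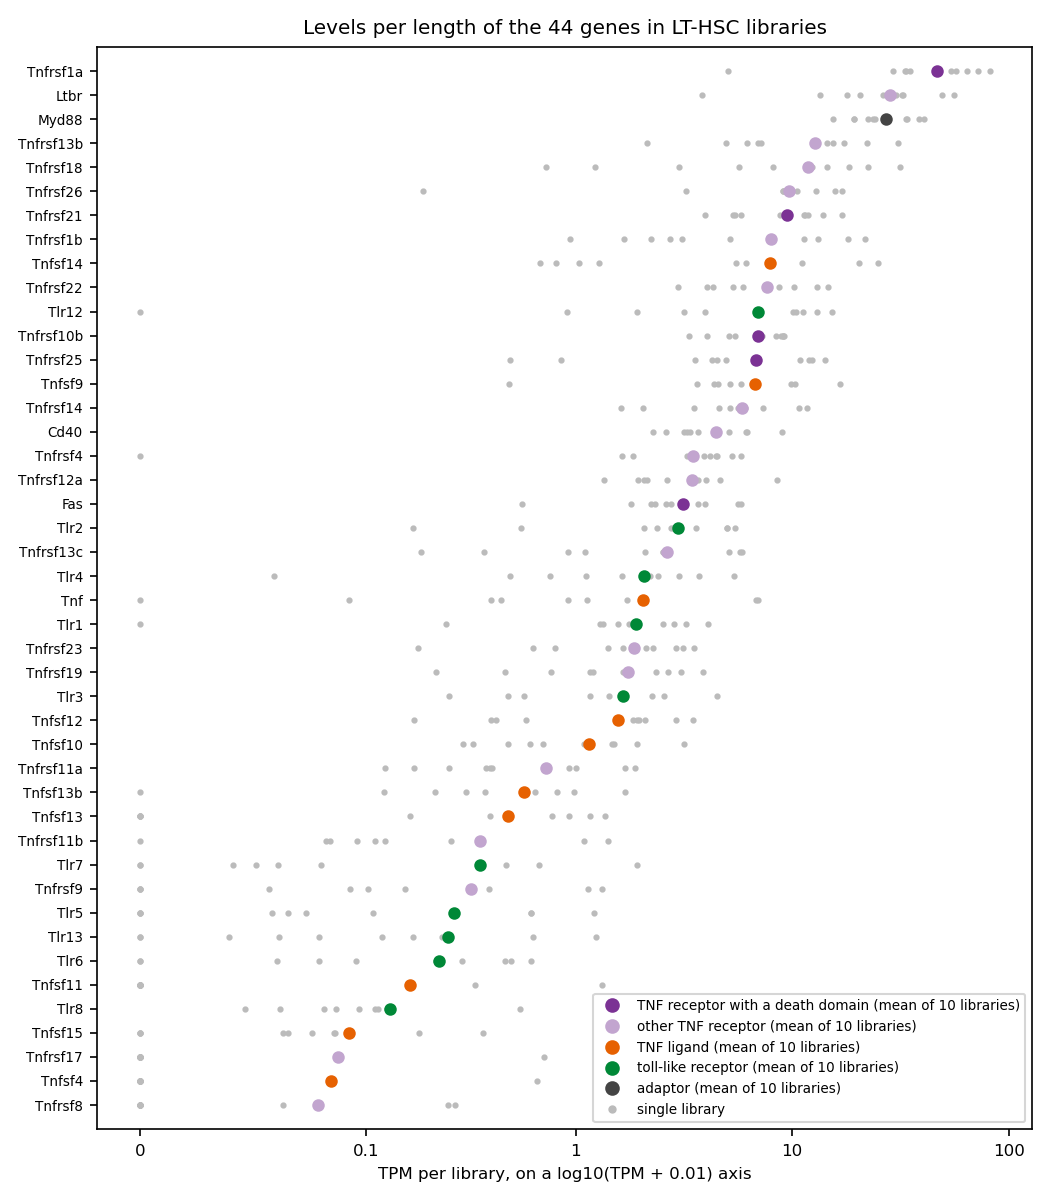
Level of each of the 44 genes in TPM on a log10(TPM + 0.01) axis, with 1 grey point per library and a coloured point for the mean of 10 libraries, coloured by role. Tnfrsf1a (46.3 TPM), Ltbr (28.1) and Myd88 (27.0) lead, and a single low point for Tnfrsf1a, Ltbr and Tnfrsf26 is WT 15416.

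None of the 43 genes tested passed the threshold in KO against WT, and in none did the groups fail to overlap. The background over all 16725 genes tested was 3.99% called (1.32% higher and 2.67% lower in KO), and 2.88% higher and 3.48% lower with no overlap. The smallest adjusted p among the 43 was 0.134, for Tnfrsf1b. At an unadjusted p below 0.05 there were 7 genes higher in KO and 0 lower, where 8.6% of all genes were higher and 10.2% lower at that limit. They were Tnfrsf1b, Tlr5, Tlr6, Tnfrsf22, Tnfsf11, Tnfrsf25 and Tnfrsf8. Tnfsf11 and Tnfrsf8 had 0 counts in every WT library, so they could only come out higher. A stricter count filter (filterByExpr) kept 34 genes of the set, with 4 higher and 0 lower at that limit. DESeq2 called 1 gene of the set, Tnfrsf1b, with a log2 fold-change threshold of 0.1, and 3 without it (Tlr5, Tlr6 and Tnfrsf1b). It gave an adjusted p to 39 of the 43, and called 7.95% and 14.7% of all genes to which it gave one.

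The fitted values leaned to one side without passing the test. The log2 fold change was above 0 for 34 of 43 genes (79.1%), with a median of 0.65, against 53.1% and a median of 0.06 over all genes tested. Tnfsf11, Tnfrsf8 and Tnfsf4 had 0 counts in every WT library, so their values could only be above 0. With the stricter filter 27 of 34 genes of the set were above 0. Their median was 0.45, against 0.01 over all genes tested. For the 19 genes averaging at least 5 CPM the log2 fold change was above 0 in 16. Their median was 0.65, against -0.02 over all 10698 such genes. By role the median was 1.05 for ligands, 0.96 for toll-like receptors, 0.35 for receptors with a death domain and 0.31 for the other TNF receptors. In a fit with the summed LT-HSC markers as a covariate the median was 0.19 and 23 of 43 were above 0, and that sum itself was higher in KO. Without WT 15416 the median was 0.47 and 32 of 43 were above 0.

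**Figure D2:**
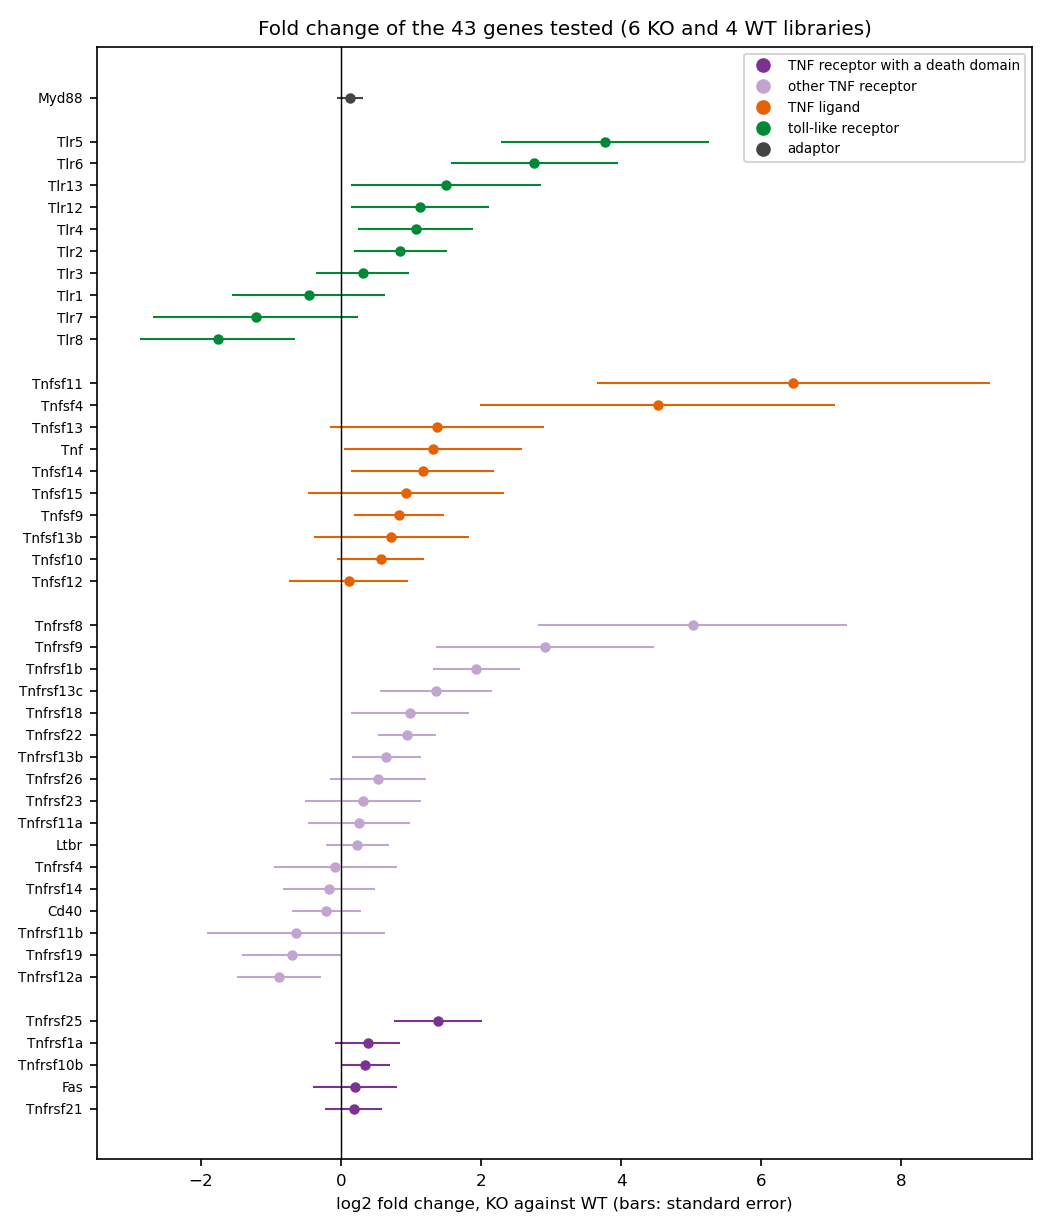
Fitted log2 fold change of KO against WT for the 43 genes tested, grouped by role, with bars for the standard error. Most points lie right of 0 (34 of 43) with wide bars, and the far points of Tnfsf11, Tnfsf4 and Tnfrsf8 are genes with 0 counts in all 4 WT libraries, whose fitted size depends on the prior count.

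The gene that carries Cre, Tnfrsf11a (chr1:105780718-105847981, GRCm38), encodes RANK, the receptor for the osteoclast factor RANKL. It was low in both groups. KO libraries ran from 1.45 to 4.11 CPM (median 2.10), and WT 15416, 15417, 15418 and 15420 were at 0.683, 0.887, 1.26 and 5.80 CPM. Of the WT libraries 3 were below every KO library and WT 15420 was above all of them. The means were 2.56 ± 1.15 CPM (SD, n = 6) and 2.16 ± 2.44 CPM (SD, n = 4), a log2 fold change of 0.26 (SE 0.73, adjusted p = 0.886 by edgeR). A two-sided exact permutation test gave p = 0.762. Without WT 15420 the groups no longer overlapped, and the log2 fold change was 1.43 (lowest adjusted p over the libraries left out in turn 0.276). How the Cre allele itself contributes reads to Tnfrsf11a was not tested.

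Tnfrsf11b, the soluble decoy for RANKL, was at 0 to 3.48 CPM in KO and 0.177 to 4.70 CPM in WT. Tnfsf11, which encodes RANKL, had counts in 2 libraries only, 104 in KO 15412 and 13 in KO 15415, and 0 in the other 8. With WT set to 3 counts per library, the KO mean of 0.678 CPM was at least 2.38-fold higher than WT. Without KO 15412 it was 0.171 CPM, under the 0.285 CPM that the WT floor allows, and no bound remained. Its place among the 7 genes above thus rested on 2 libraries. Their hepatoblast sums were 5980 and 7820 CPM and their granulocyte sums 1340 and 411 CPM. WT 15418 had sums of 5240 and 2190 CPM and 0 counts of Tnfsf11. Whether RNA of other cell types was the source of Tnfsf11 was not tested.

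Among receptors with a death domain, Tnfrsf1a (chr6:125349362-125362484) was at 69.0 to 141 CPM in KO (median 102) and at 12.8, 112, 115 and 81.4 CPM in WT 15416, 15417, 15418 and 15420. The groups overlapped, with WT 15416 far below the rest. Its fold change on the log2 scale was 0.38 (SE 0.46, adjusted p = 0.712 by edgeR) and 0.02 without WT 15416. KO 15405 and 15409, at 141 and 130 CPM of Tnfrsf1a, had endothelial sums of 5380 and 7600 CPM. The sum was 1040 CPM in KO 15415, at 69.0 CPM of Tnfrsf1a, 218 CPM in WT 15416 and 4870 CPM in WT 15420. With that sum as a covariate the log2 fold change was 0.31 (SE 0.22). Whether endothelial RNA contributed to Tnfrsf1a was not tested.

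Tnfrsf25, known as DR3, is the receptor for the ligand Tnfsf15. Its KO libraries ran from 4.49 to 17.0 CPM (median 12.0), and the WT libraries were at 1.59, 4.79, 1.26 and 9.48 CPM. Of the KO libraries 4 were above every WT library, while KO 15409 at 4.49 and KO 15412 at 6.37 CPM fell among them. The fitted log2 fold change was 1.39 (SE 0.63, adjusted p = 0.255 by edgeR).

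Tnfrsf21, or DR6, was highest of all in WT 15418, at 69.6 CPM, with the other WT libraries at 23.5, 21.7 and 17.5 CPM and the KO libraries at 16.6 to 52.0 CPM (median 37.4). Its log2 fold change was 0.18 (SE 0.41, adjusted p = 0.856 by edgeR). Tnfrsf10b, the receptor for TRAIL, was at 10.6 to 17.8 CPM in KO (median 15.1) and 11.8, 16.4, 11.9 and 5.52 CPM in WT. The groups overlapped for both genes. The log2 fold change of Tnfrsf10b was 0.35 (SE 0.35, adjusted p = 0.638 by edgeR), and that of Fas, the receptor for Fas ligand, 0.20 (SE 0.60).

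Among the other TNF receptors, Tnfrsf1b (chr4:145213463-145246870) came closest to the threshold. It encodes the TNF receptor without a death domain, which membrane-bound TNF engages best. In KO 15406, 15411, 15412 and 15415 it was at 65.4, 58.3, 48.1 and 57.3 CPM, and in KO 15405 and 15409 at 16.5 and 5.47 CPM. The WT libraries were at 10.1, 12.2, 17.1 and 4.39 CPM. Of the KO libraries 4 thus stood above every WT library and the other 2 lay within the WT range. The means were 41.9 ± 24.8 CPM (SD, n = 6) and 10.9 ± 5.26 CPM (SD, n = 4), a log2 fold change of 1.93 (SE 0.62, adjusted p = 0.134 by edgeR).

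The call for Tnfrsf1b turned on the test and on KO 15409. DESeq2 gave it an adjusted p of 0.0475 with the fold-change threshold and 0.0215 without. Leaving out KO 15409 gave a log2 fold change of 2.16 (SE 0.46) and an adjusted p of 0.0506 by edgeR. The 4 libraries with high Tnfrsf1b had summed LT-HSC markers of 1350 to 2000 CPM, and KO 15405 and 15409 had 1240 and 891 CPM. KO 15409 also had the highest endothelial sum, 7600 CPM. Whether the make-up of the libraries accounts for Tnfrsf1b was not tested. With the LT-HSC sum as a covariate the log2 fold change of Tnfrsf1b was -0.34 (SE 1.25, adjusted p = 1 by edgeR), and with the endothelial sum it kept its sign, as the plot of the alternatives shows.

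**Figure D3:**
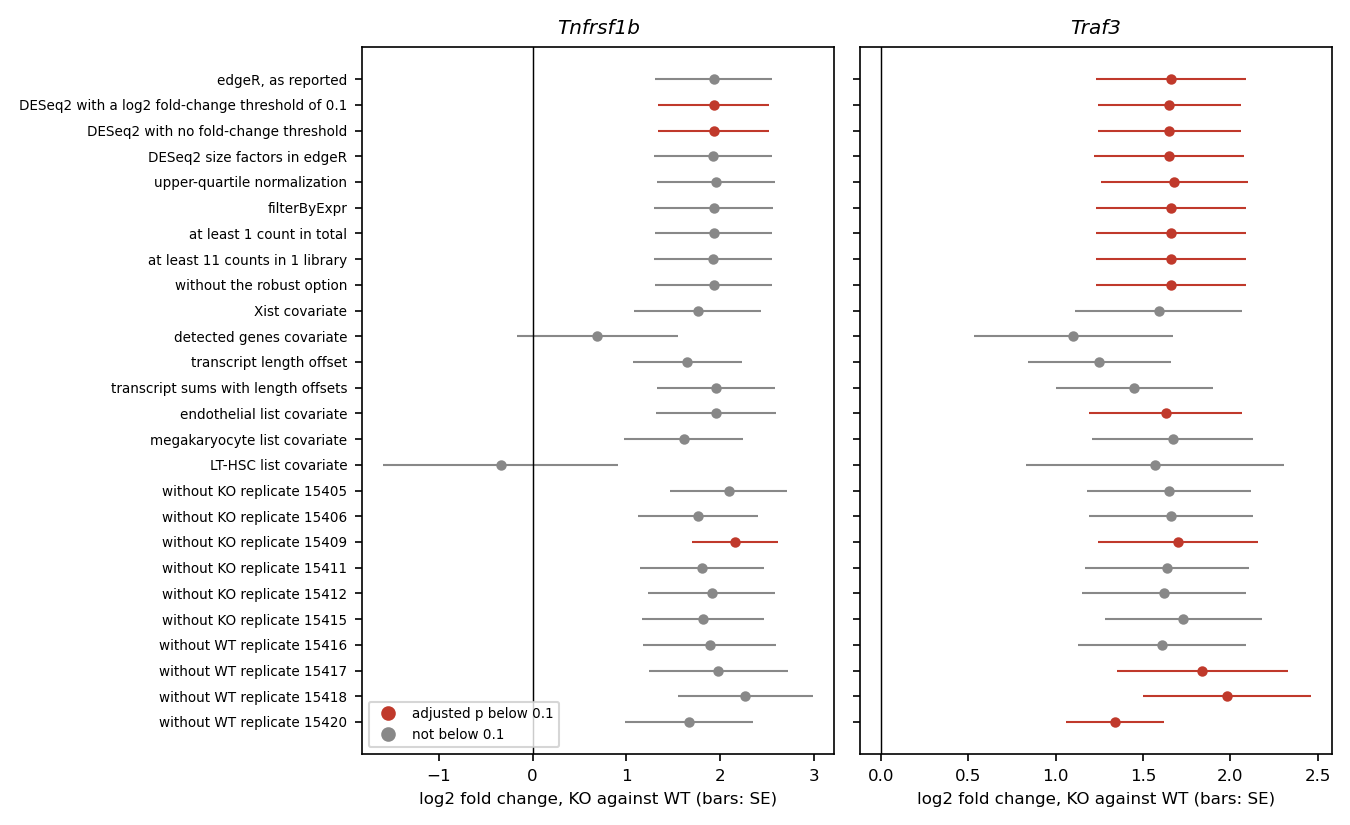
Log2 fold change of KO against WT with its standard error for Tnfrsf1b and for Traf3, an adaptor described below, under each way of processing the counts, red where the adjusted p was below 0.1. Tnfrsf1b stays near its value of 1.93 except with the detected-gene and LT-HSC covariates (-0.34 in the latter), and Traf3 stays between 1.10 and 1.98.

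Ltbr was at 32.0 to 90.6 CPM in KO (median 54.8), and at 9.48 CPM in WT 15416 against 65.3, 60.6 and 66.4 CPM in the other WT libraries. The groups overlapped, and the direction turned without WT 15416. On the log2 scale the change was 0.23 (SE 0.45, adjusted p = 0.832 by edgeR), and -0.12 without that library. With the endothelial sum as a covariate it was 0.14 (SE 0.23). Whether endothelial RNA contributed to Ltbr was not tested.

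Tnfrsf13b was at 11.7 to 54.5 CPM in KO (median 33.8) and at 6.45, 37.0, 17.2 and 20.9 CPM in WT, with a log2 fold change of 0.65 (SE 0.49, adjusted p = 0.511 by edgeR). Tnfrsf18, or GITR, a costimulatory receptor of T cells, was at 0.433 to 23.7 CPM in KO (median 15.9) and at 1.37, 5.24, 4.95 and 17.1 CPM in WT, with a log2 fold change of 0.99 (SE 0.84, adjusted p = 0.569 by edgeR). For both the lowest KO library was KO 15409 and the lowest WT library WT 15416, and the groups overlapped. An antisense gene, Gm16008, overlaps 27.2% of the exonic bases of Tnfrsf18, and the counting is not stated to use strand.

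Tnfrsf22, a decoy receptor for TRAIL, was at 11 to 23.9 CPM in KO (median 15.0) and at 5.01, 4.53, 15.0 and 7.08 CPM in WT. Every KO library was above 3 of the WT libraries, and WT 15418 lay among the KO values. Its log2 fold change was 0.94 (SE 0.41, adjusted p = 0.243 by edgeR). Without WT 15418, the library with the highest erythroid sum, it was 1.51 (SE 0.39) with an adjusted p of 0.0950, and the groups no longer overlapped. Its neighbour Tnfrsf23 shares sequence with it, 38.5% of the 31-base words of Tnfrsf22 occurring in other genes, so reads could be split between them.

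Tnfrsf8, or CD30, had 11, 15 and 2 counts in KO 15405, 15411 and 15415 and 0 counts in the other libraries. Its KO mean of 0.247 CPM was under the 0.285 CPM that 3 counts per WT library allow, so no fold is given (adjusted p = 0.260 by edgeR). The remaining tested receptors ran from a log2 fold change of -0.88 for Tnfrsf12a, the receptor for TWEAK (SE 0.60), to 2.91 for Tnfrsf9, a costimulatory receptor of T cells (SE 1.56). Between them were the BAFF receptor Tnfrsf13c at 1.36 (SE 0.80), Tnfrsf26 at 0.53 (SE 0.68), Tnfrsf23 at 0.31 (SE 0.83), the OX40 gene Tnfrsf4 at -0.08 (SE 0.88), Tnfrsf14, which binds LIGHT, at -0.17 (SE 0.66), Cd40 at -0.21 (SE 0.49), Tnfrsf11b at -0.64 (SE 1.27) and Tnfrsf19 at -0.70 (SE 0.71). None of them had an unadjusted p below 0.05. Tnfrsf26 was at 23.6 to 41.3 CPM in KO but at 0.683 CPM in WT 15416, and at 16.3 to 40.8 CPM in the other WT libraries.

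**Figure D4:**
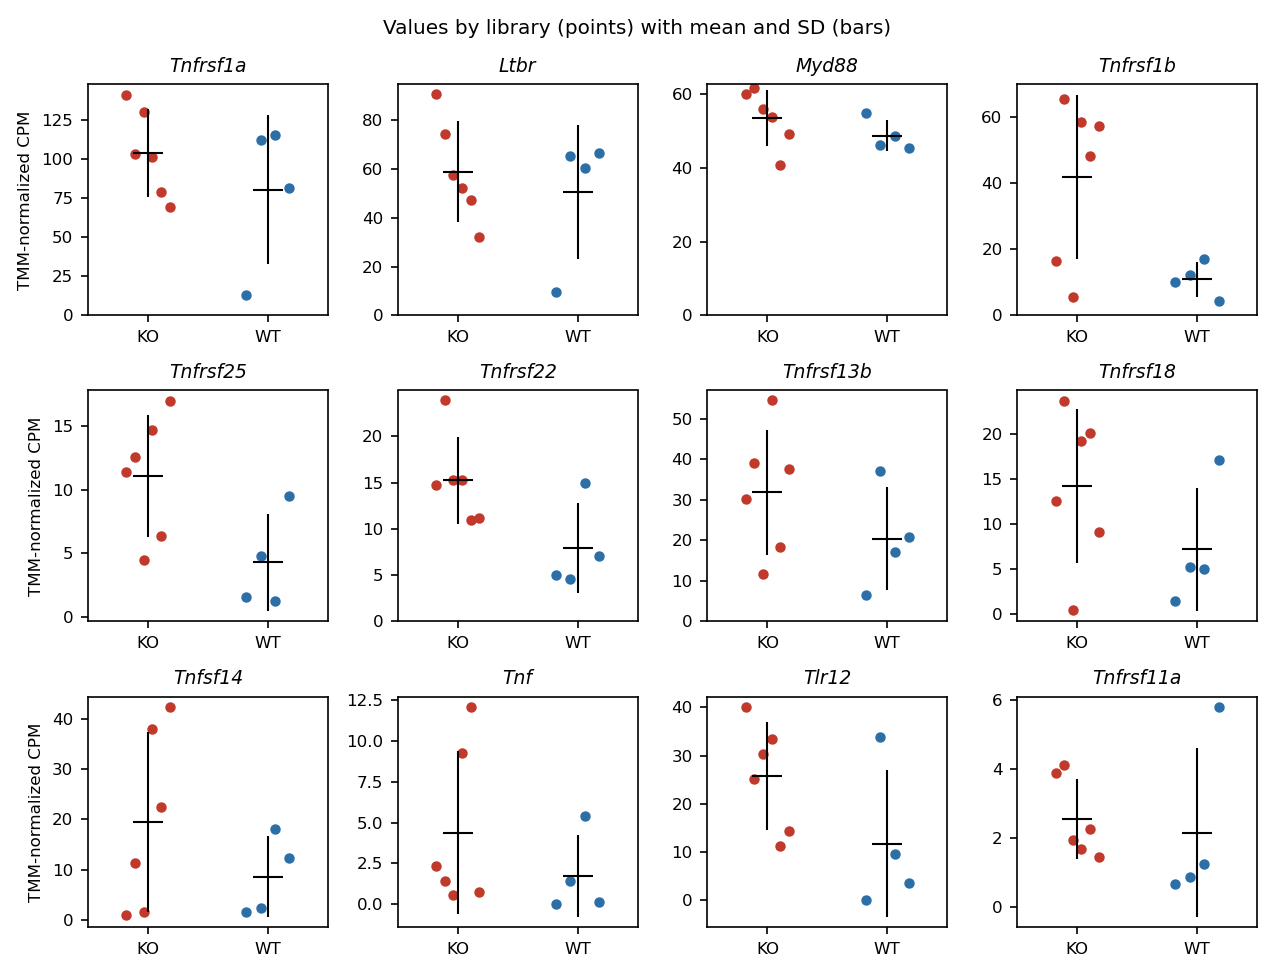
TMM-normalized CPM of 12 genes of the set in each of the 6 KO (red) and 4 WT (blue) libraries, with black bars for the mean and SD. Tnfrsf1b splits into 4 high and 2 low KO libraries, Myd88 barely varies, and the lowest WT point of Tnfrsf1a and Ltbr is WT 15416.

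All 10 ligands had a fitted log2 fold change above 0, beside 53.1% of all genes tested, and none passed the test. For Tnfsf11 and Tnfsf4, with 0 counts in every WT library, only a value above 0 was possible. Tnfsf14, or LIGHT, which binds Ltbr and Tnfrsf14, was at 1.04 to 42.3 CPM in KO (median 16.9) and at 1.74, 2.40, 18.2 and 12.3 CPM in WT. The 3 highest libraries were KO 15411, 15412 and 15415, with 38.0, 22.4 and 42.3 CPM, and the 2 lowest were also KO. KO against WT gave a log2 fold change of 1.17 (SE 1.02, adjusted p = 0.581 by edgeR). The same 3 libraries had the 3 highest megakaryocyte sums, 2430, 2360 and 3430 CPM against 242 to 1190 CPM elsewhere. With that sum as a covariate, chosen after seeing the data, the log2 fold change of Tnfsf14 was -0.01 (SE 0.68). Whether megakaryocyte RNA accounts for these values was not tested.

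Tnf (chr17:35199381-35202007) was at 0.542 to 12.1 CPM in KO (median 1.87) and at 0, 1.42, 5.40 and 0.142 CPM in WT. KO 15411 and 15412, at 9.28 and 12.1 CPM, stood above the rest. KO against WT gave a log2 fold change of 1.32 (SE 1.27, adjusted p = 0.620 by edgeR). Tnfsf9, the ligand of Tnfrsf9, was at 4.93 to 21.7 CPM in KO (median 7.97), highest in KO 15412, and at 0.683, 5.5, 8.43 and 7.50 CPM in WT. Its groups overlapped too, with a log2 fold change of 0.83 (SE 0.64, adjusted p = 0.525 by edgeR). An antisense gene, Gm11110, overlaps 14.9% of its exonic bases.

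Tnfsf10, which encodes TRAIL, was at 1.25 to 12.1 CPM in KO and 1.69 to 6.52 CPM in WT, a log2 fold change of 0.57 (SE 0.62). Tnfsf12 and Tnfsf13, or TWEAK and APRIL, share 47.4% and 58.4% of their 31-base words with other genes, chiefly the read-through gene Tnfsfm13, so their values of 0.11 (SE 0.85) and 1.37 (SE 1.53) are uncertain. Tnfsf13b, or BAFF, gave 0.72 (SE 1.11) and Tnfsf15 0.93 (SE 1.40), both on means under 1 CPM in each group. Tnfsf4, the ligand of Tnfrsf4, had its 22 counts in KO 15411 alone.

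Toll-like receptors were low and uneven. Tlr12, which is known for sensing profilin of protozoan parasites, was at 11.2 to 40.1 CPM in KO (median 27.8) and at 0, 33.8, 9.69 and 3.54 CPM in WT. Of the WT libraries 3 were below every KO library, and WT 15417 was among the highest of all. Its fitted log2 fold change was 1.13 (SE 0.98, adjusted p = 0.579 by edgeR). Without WT 15417 the groups did not overlap and it was 2.54, with an adjusted p of 0.215. The endothelial sum was lowest in WT 15416 (218 CPM), where Tlr12 had 0 counts. WT 15420 had 3.54 CPM of Tlr12 at the highest WT sum (4870 CPM), and KO 15415 had 14.3 CPM at the lowest KO sum (1040 CPM). With the endothelial sum as a covariate the log2 fold change of Tlr12 was 1.48 (SE 0.76). Whether endothelial RNA was a source of Tlr12 was not tested.

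Tlr2, a receptor for bacterial lipoproteins, was at 6.64 to 16.7 CPM in KO (median 9.83) and at 0.607, 7.28, 2.74 and 13.2 CPM in WT, a log2 fold change of 0.85 (SE 0.67, adjusted p = 0.529 by edgeR). Tlr4, the receptor for lipopolysaccharide, was at 1.64 to 17.7 CPM in KO (median 10.1) and at 0.152, 3.19, 7.47 and 8.21 CPM in WT, a log2 fold change of 1.07 (SE 0.82, adjusted p = 0.520 by edgeR). WT 15416 was the lowest library for both, and the groups overlapped.

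Tlr5, the receptor for flagellin, had 27, 0, 59, 2, 65 and 6 counts in KO 15405, 15406, 15409, 15411, 15412 and 15415, or 0 to 3.20 CPM (median 1.02). The WT libraries had 0, 1, 3 and 0 counts. Of the KO libraries 4 were above every WT library, and the other 2 lay within the WT range. KO against WT gave a log2 fold change of 3.77 (SE 1.48, adjusted p = 0.197 by edgeR), on WT counts of at most 3 per library.

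Tlr6, which pairs with Tlr2, had 23, 0, 5, 42, 38 and 32 counts in the same KO libraries, or 0 to 2.10 CPM (median 1.29), and 4, 2, 2 and 0 counts in WT. Here too 4 KO libraries were above every WT library. Its fitted log2 fold change was 2.76 (SE 1.19, adjusted p = 0.232 by edgeR). Tlr1, the other partner of Tlr2, shares sequence with Tlr6, 16.6% of whose 31-base words occur in other genes, and its value was -0.46 (SE 1.09).

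The endosomal receptors for nucleic acids gave 0.31 (SE 0.66) for Tlr3, -1.22 (SE 1.46) for Tlr7, -1.76 (SE 1.11) for Tlr8 and 1.5 (SE 1.36) for Tlr13. Apart from Tlr3, which ran from 1.58 to 10.7 CPM in KO and 1.59 to 7.01 CPM in WT, these receptors averaged about 1 CPM or less in both groups.

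Myd88 (chr9:119335934-119341411) had the smallest spread relative to its mean of the 43 genes in both groups. It was at 40.9 to 61.6 CPM in KO (median 54.8) and at 54.8, 46.3, 48.8 and 45.3 CPM in WT, so that even WT 15416 lay with the others. The means were 53.6 ± 7.61 CPM (SD, n = 6) and 48.8 ± 4.28 CPM (SD, n = 4), a log2 fold change of 0.13 (SE 0.18, adjusted p = 0.745 by edgeR) with a 95% interval from -0.22 to 0.49. The exons of Acaa1a on the opposite strand overlap 11.3% of those of Myd88.

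**Figure D5:**
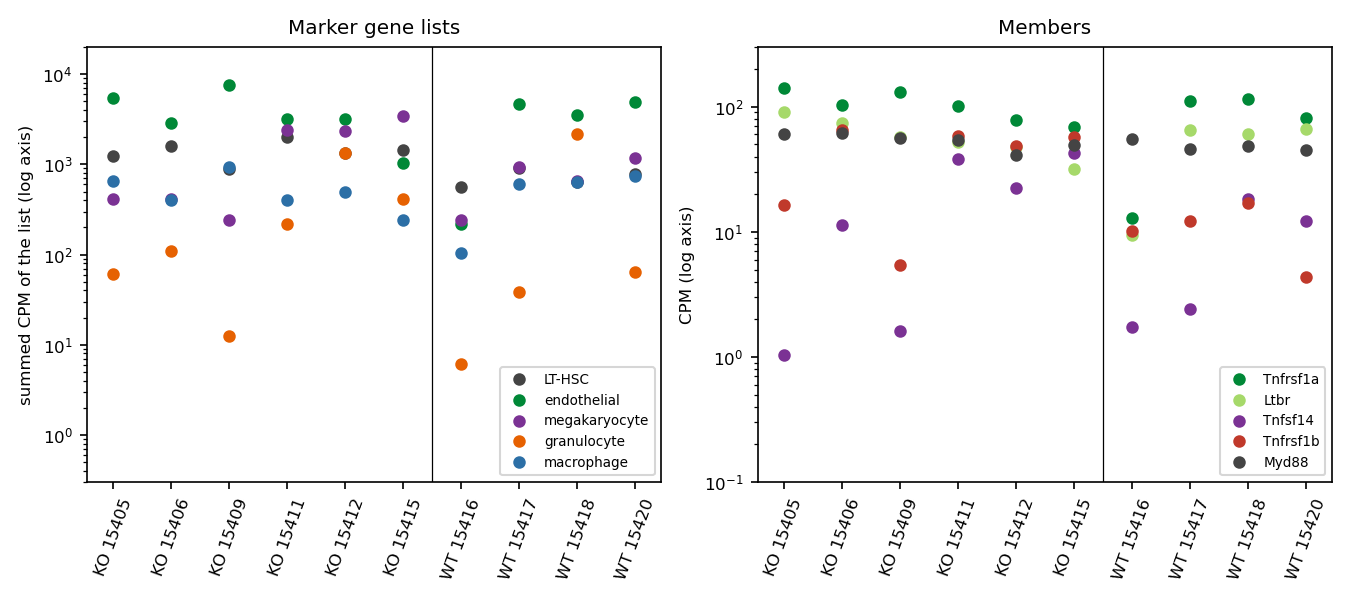
Summed CPM of 5 marker lists (left) and CPM of 5 genes of the set (right) in each library, both on log axes, with KO left and WT right of the vertical line. In WT 15416 the endothelial sum (218 CPM), Tnfrsf1a (12.8) and Ltbr (9.48) are at their lowest while Myd88 (54.8) is not, and Tnfsf14 is highest in the 3 KO libraries with the highest megakaryocyte sums.

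Further members of the TNF superfamily have names that the symbol rule does not take. Of 12 such genes listed, 10 were in the table and tested. None passed the threshold. At an unadjusted p below 0.05 there were 2 higher and 1 lower in KO, 9 had a log2 fold change above 0, and the median was 1.08. Over all genes tested 53.1% were above 0, with a median of 0.06. Fasl and Edar had 0 counts in every WT library and Lta had 0 in every KO library, so their directions were fixed.

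Eda, the ectodysplasin ligand, was at 1.90 to 7.11 CPM in KO (median 4.33) and at 0.531, 1.51, 0.0739 and 0 CPM in WT. Its groups did not overlap, at a log2 fold change of 2.95 (SE 0.98, adjusted p = 0.141 by edgeR). DESeq2 gave adjusted p = 0.0181 with the fold-change threshold and 0.0074 without, and leaving out WT 15417 gave 0.0786 by edgeR. Ltb, the lymphotoxin beta chain that binds Ltbr, was at 20.3 to 125 CPM in KO (median 75.2) and at 5.84, 53.5, 44.4 and 28.6 CPM in WT. Of the KO libraries 5 were above every WT library and KO 15409 was below 3 of them, for a log2 fold change of 1.27 (SE 0.58, adjusted p = 0.266 by edgeR). Lta had 39 counts, all in WT 15418 (2.88 CPM), and no counts in any other library.

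Genes that act next to these receptors were read from a list of 60 adaptors, kinases, ubiquitin enzymes and toll-like receptor cofactors, all tested. Of them 1 (1.67%) passed the threshold, fewer than the 3.99% of all genes. At an unadjusted p below 0.05 there were 2 higher (3.33%) and 4 lower (6.67%) in KO, also below the 8.6% and 10.2% of all genes. Of the 60, 32 had a log2 fold change above 0, and the median was 0.02. Unlike the receptors and ligands, the list thus had a median near that of all genes, which is a description of both sets and was not tested as a difference.

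The gene that passed was Traf3 (chr12:111166370-111267153), an adaptor that restrains noncanonical NF-kappaB signalling below Ltbr, Cd40 and the BAFF receptor. It was at 20.8 to 33.2 CPM in KO (median 28.2) and at 7.66, 11.6, 13.1 and 1.98 CPM in WT. All 6 KO libraries lay above all 4 WT libraries. The means were 27.3 ± 4.42 CPM (SD, n = 6) and 8.59 ± 4.97 CPM (SD, n = 4), a log2 fold change of 1.66 (SE 0.43, adjusted p = 0.0856 by edgeR). Its direction held in all 26 alternatives and the call in 13, with log2 fold changes of 1.10 to 1.98 and adjusted p from 0.00411 to 1. The call was lost without any 1 of KO 15405, 15406, 15411, 15412 and 15415 or WT 15416, settings in which at most 1 of all genes passed the threshold (adjusted p up to 0.205).

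Traf2, the adaptor that brings cIAP ligases to TNF receptors, was at 57.9 to 78.6 CPM in KO (median 69.1) and at 117, 106, 102 and 77.0 CPM in WT. Only WT 15420 lay within the KO range. The log2 fold change was -0.55 (SE 0.17, adjusted p = 0.126 by edgeR), and without WT 15420 it was -0.66 with an adjusted p of 0.0862. A transcript length offset gave -0.91 and transcript sums -0.38, and 47.5% of its estimated counts in KO and 33.1% in WT were on protein-coding transcripts. Otulin, the deubiquitinase of linear chains, was at 12.3 to 27.0 CPM in KO (median 22.8) and at 44.9, 30.7, 24.3 and 57.3 CPM in WT, with WT 15418 within the KO range. Its log2 fold change was -0.92 (SE 0.31, adjusted p = 0.148 by edgeR).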

How the data were processed

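Bulk RNA-seq of LT-HSCs was read in 6 KO and 4 WT libraries. The authors made SmartSeq2 libraries, converted reads with bcl2fastq 2.20 and quantified Gencode vM16 transcripts (GRCm38) with kallisto 0.44.0. They deposited estimated counts and TPM per transcript and library, and a table of counts per gene symbol, not normalized. Their methods do not say whether counting used strand.

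Gene counts totalling at least 11 were compared with edgeR 4.0.16 (R 4.3.3): TMM, glmQLFit with robust estimation, glmQLFTest, and Benjamini-Hochberg adjustment over all 16725 genes, with a threshold of 0.1 as in the study. Standard errors are derived from the F statistic. DESeq2 1.42.0 was an alternative, with and without the study's log2 fold-change threshold of 0.1. Others were DESeq2 size factors, upper-quartile scaling, 3 other filters, no robust option, covariates (Xist, genes detected), length offsets, transcript sums, a threshold of 0.05 and each library left out. Covariates from endothelial, megakaryocyte and LT-HSC markers were chosen after seeing the data. Scripts were tested on simulated data.

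TPM was summed over the transcripts of a symbol. Positions are from Gencode vM21 on GRCm38, which matched all 44 genes. Values by library are given for Tnfrsf11a, for genes of the set past the threshold, with p below 0.05 or with no overlap, for the 3 highest by TPM in each role, and for the 3 smallest p in each further list; Cd40, Fas and other genes are given by size. The genes and lists were chosen with earlier results of these data known. The study gives its numbers as embryos, 6 KO and 4 WT littermate controls, and the libraries were taken as separate embryos. Floors of 3 counts cover counting error only. Python 3.11.15, pandas 2.3.3, NumPy 2.4.6, SciPy 1.17.1 and matplotlib 3.10.9 were used.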

Additional observations from a re-analysis of the deposited data

Results flagged for a closer look

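In each group of 6 KO or 4 WT libraries, the gap between the highest or lowest library and its nearest neighbour was divided by the range of the group, and values above Dixon's 95% critical ratio for that number of libraries were taken. Of 54 groups 3 had every library at 0, and 7 of the other 51 had such a library. Chance gives about 1 in 20 for normal and independent values. These are CPM values of genes read in the same libraries, some near 0, so no excess over chance is read from the 7.

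Ltbr in WT had a ratio of 0.898, for WT 15416 at 9.48 CPM against 60.6 to 66.4 CPM. Tnfrsf11a in WT had 0.888, for WT 15420 at 5.80 CPM against 0.683 to 1.26 CPM. Tnfrsf21 in WT had 0.885, for WT 15418 at 69.6 CPM against 17.5 to 23.5 CPM. Lta in WT had 1.0, which follows from its counts being in WT 15418 alone (2.88 CPM), so that the chance rate does not apply to it.

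In KO, Tnfrsf22 had a ratio of 0.664 for KO 15406, at 23.9 CPM against 11 to 15.3 CPM. Tnfsf11 had 0.734 and Tnfsf9 had 0.691, both for KO 15412, at 3.22 CPM against 0 to 0.855 CPM and at 21.7 CPM against 4.93 to 10.1 CPM.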

How the results depend on the processing

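No gene of the set passed the threshold in edgeR apart from 1 without KO 15409 (Tnfrsf1b, where 6.04% of all genes were called) and 1 without WT 15418 (Tnfrsf22, 3.67%), so that leaving out libraries gave 0 to 1. DESeq2 gave 1 with and 3 without its fold-change threshold. Genes of the set with no overlap numbered 0 to 2 when a library was left out: 2 without WT 15417 (Tlr12 and Tnfrsf9, beside 9.96% of all genes), and 1 each without WT 15418 (Tnfrsf22, 10.3%) and WT 15420 (Tnfrsf11a, 10.5%). The number of signalling partners called was 2 and 5 in these DESeq2 fits, 2 with filterByExpr (Traf2 and Traf3), 2 with a length offset (Traf2 and Fadd), 0 with Xist, detected genes, the megakaryocyte sum or the LT-HSC sum as covariate, with transcript sums or at a threshold of 0.05, and 0 to 2 when a library was left out. In edgeR 0 of all 16725 genes passed with Xist, with the LT-HSC sum or at a threshold of 0.05, 1 with detected genes and 2 with the megakaryocyte sum, so the losses there are not particular to these lists. Of the further superfamily genes, 1 (Eda) was called in each DESeq2 fit and 0 to 1 when a library was left out.

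Of 522 values of the named genes of the set under the alternatives, 495 kept their direction, 27 did not and 6 passed the threshold. Some values kept their sign but moved far: with Xist Tlr6 was at 0.75, Tnfsf11 at 0.71 and Tnfsf14 at 0.09, and with detected genes Tnfrsf11a was at 2.45 (SE 1.03, adjusted p = 0.299 by edgeR). The median log2 fold change of the set was 0.19 to 0.89. Of the 27 signs that turned, 10 did so with the LT-HSC sum as a covariate. They included Tnfrsf1b and Tnfrsf25, at 1.93 (SE 0.62) and 1.39 (SE 0.63) without it. With Xist as a covariate Tnf was at -0.16 and Tnfrsf21 at -0.11. With the number of detected genes Tnf was at -0.78, Tnfrsf10b at -0.23, Tnfrsf21 at -0.31, Tnfsf11 at -5.20 and Tnfsf14 at -0.23. With a length offset Myd88 was at -0.04, Tnfrsf11a at -0.12 and Tnfrsf21 at -0.21, and all genes tested had a median of -0.15. With transcript sums Tnfrsf10b was at -0.27 and Tnfrsf11a at -0.04. With the megakaryocyte sum Tnfsf14 was at -0.01. With the LT-HSC sum Ltbr was at -0.11, Tlr2 at -0.30, Tnf at -0.55, Tnfrsf11a at -0.20, Tnfrsf13b at -1.39, Tnfrsf18 at -2.83, Tnfrsf1b at -0.34, Tnfrsf21 at -0.48, Tnfrsf25 at -0.46, Tnfsf14 at -2.46 and Ltb at -1.05. Without 1 library, Ltbr was at -0.12 to 0.39, Tnfrsf21 at -0.03 to 0.89 and Tnfrsf11a at -0.04 to 1.43. The cause of these turns was not tested, and the LT-HSC sum is higher in KO, so that the covariate and the genotype share much of their variation.

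With 4 WT libraries, 1 of which stood apart, standard errors of the named genes of the set ran from 0.18 (Myd88) to 2.80 (Tnfsf11) on the log2 scale, and genes under 1 CPM rested on few counts. A p above the threshold here does not show that a gene was unchanged. The labels do not give the litter of each embryo, so no analysis paired by litter was possible.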

Other observations

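For a few genes of the set, the transcripts behind the counts were not mainly protein-coding in KO, in WT or in both. Tnfrsf23, a decoy receptor for TRAIL, had 4.35% of its estimated counts on protein-coding transcripts in KO and 22.0% in WT. For Tnfrsf10b the share was 69.9% in KO and 33.1% in WT, and for Tlr1 46.0% and 90.2%. Tnfrsf8 had none of its KO counts on its protein-coding transcript. These shares pool the libraries of a group, rest on kallisto's division of reads among transcripts, and were not tested. For Tnfrsf1a, Ltbr, Myd88, Tnfrsf1b and Tnfrsf21 at least 99.1% of the counts were on protein-coding transcripts in both groups.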
